A study of Mus musculus with 18 samples.

Results

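The endothelial markers and adhesion molecules of the liver, 10 genes, are described here across 9 RNA-seq libraries of mouse liver, with Icam1 and Vcam1 also followed in 9 libraries of RAW264.7 cells, a macrophage-like mouse cell line. The 10 members were taken by gene symbol from the 21441 rows of the deposited liver table, and all 10 were found. They are 5 adhesion molecules (Icam1, Vcam1, Sele, Selp, Pecam1), 4 markers of sinusoidal endothelium (Stab1, Stab2, Lyve1, Clec4g) and the VEGF receptor Kdr. The study asked how MIC-1, moringa isothiocyanate-1 from Moringa seeds, alters the response to LPS, the outer membrane component of Gram-negative bacteria that causes acute inflammation. The liver libraries came from male wild type C57BL/6 mice in 3 groups, with 3 libraries per group from 9 mice, taken from groups of 6 animals in the protocol, and the age of the mice was not given in the sources used here. Control mice received vehicle and saline, LPS mice received 10 mg/kg LPS into the peritoneum, and LPS+MIC-1 mice received MIC-1 by gavage, 80 mg/kg in 10% DMSO for 3 days, before the same LPS dose. Tissue was taken 16 h after LPS. The RAW264.7 cultures were labelled with the same 3 treatments, with MIC-1 at 10 µM by the table header and the design text. The labels of the cultures repeat the mouse doses, so the LPS dose of the cultures is uncertain. The 3 days of MIC-1 and the 16 h after LPS are also carried over from the mouse protocol. Whether the cultures had a pretreatment, and how long they were exposed, is therefore uncertain too.

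Liver sinusoids are lined by a fenestrated endothelium without a continuous basement membrane, which takes up waste molecules from blood through scavenger receptors and lectins. When endotoxin or cytokines reach an endothelium, transcription factors of the NF-κB family drive the genes of adhesion molecules. Selectins then slow passing leukocytes, the immunoglobulin family members ICAM-1 and VCAM-1 hold them through integrins, and PECAM-1 at cell junctions takes part in their passage through the wall. Sinusoidal endothelium depends on VEGF signalling for its differentiated state. In whole liver, fewer cells of a type and less RNA per cell cannot be told apart.

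Values are FPKM, fragments per kilobase of transcript and scaled for library size, which can be set side by side between genes because they are per length. The table's columns carry the treatment without a replicate number, so the libraries of a treatment are numbered as they stand from left to right. From the steps between low FPKM values, the liver libraries held an estimated 3.92 to 17.0 M reads, fewest in Control libraries 2 and 3, and the macrophage libraries 14.7 to 19.6 M. The liver libraries were split into 2 sets by the sign of their loading on the first principal component of values centred within each group. Centring puts both signs into every treatment, so the crossing of sets and treatments follows from the method. Loadings were graded, smallest in size for Control 2 (0.143) and largest for LPS 2 (0.567). Set A held Control 1, LPS 1 and 3 and LPS+MIC-1 1 and 3, and set B held Control 2 and 3, LPS 2 and LPS+MIC-1 2. The component that separates them took 43.2% of the variance within groups. Across 10147 genes LPS 2 correlated more closely with LPS+MIC-1 2 (r = 0.947) than with LPS 1 (0.889) or LPS 3 (0.893). Over genes of intermediate depth, the squared difference between LPS 1 and LPS 3 was 7.19 times the sampling variance. That between LPS+MIC-1 1 and 3 was 2.45 times, against 32.4 to 77.1 times for the LPS and LPS+MIC-1 pairs with library 2. In Control the squared difference was 5.73 times between libraries 2 and 3, against 63.3 and 65.5 times for the pairs with library 1. These close pairs were counted as separate samples, and which libraries were prepared together is not given in the sources used here. In set B the hepatocyte receptor Asgr1 was listed at 0 in all 4 libraries against 77.1 to 170 FPKM in set A, and Csnk2b, a kinase subunit found in all cells, at 0 in Control 2 and 3 against 45.8 in Control 1, so a 0 in this table does not show that a gene was silent. What sets the libraries apart was not tested. Values without LPS 2 or LPS+MIC-1 2 are given beside the liver results whose calls they changed.

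In control liver the sinusoidal lectin Clec4g was the highest of the 10 genes, at 25.6 ± 2.0 FPKM (SD, n = 3), and its lowest library lay above the highest library of any other member. Stab1, Lyve1, Icam1 and Stab2 followed with means between 5.77 and 9.58 FPKM, and neighbours in that order overlapped. Kdr at 3.26 ± 0.082 FPKM stood below Stab2 and above Vcam1 without overlap. Vcam1, Selp and Pecam1 overlapped with means between 0.635 and 1.29 FPKM, and Sele was listed at 0 in each control library. The order changed with LPS. Icam1 came first and Lyve1 second without overlap between them, and Clec4g moved to the seventh place, overlapping its neighbours Pecam1 and Selp. With LPS+MIC-1 the order was Icam1, Lyve1, Clec4g and Stab1, each overlapping the next. Clec4g, Stab1, Lyve1 and Stab2, the members taken as sinusoidal markers, thus made 4 of the 5 highest levels in control liver. Among markers of endothelium in general, picked after their values were seen, Tek and Erg were listed at 0 in all 9 libraries, while the junction cadherin Cdh5 lay between 2.05 and 5.32 FPKM.

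**Figure D1:**
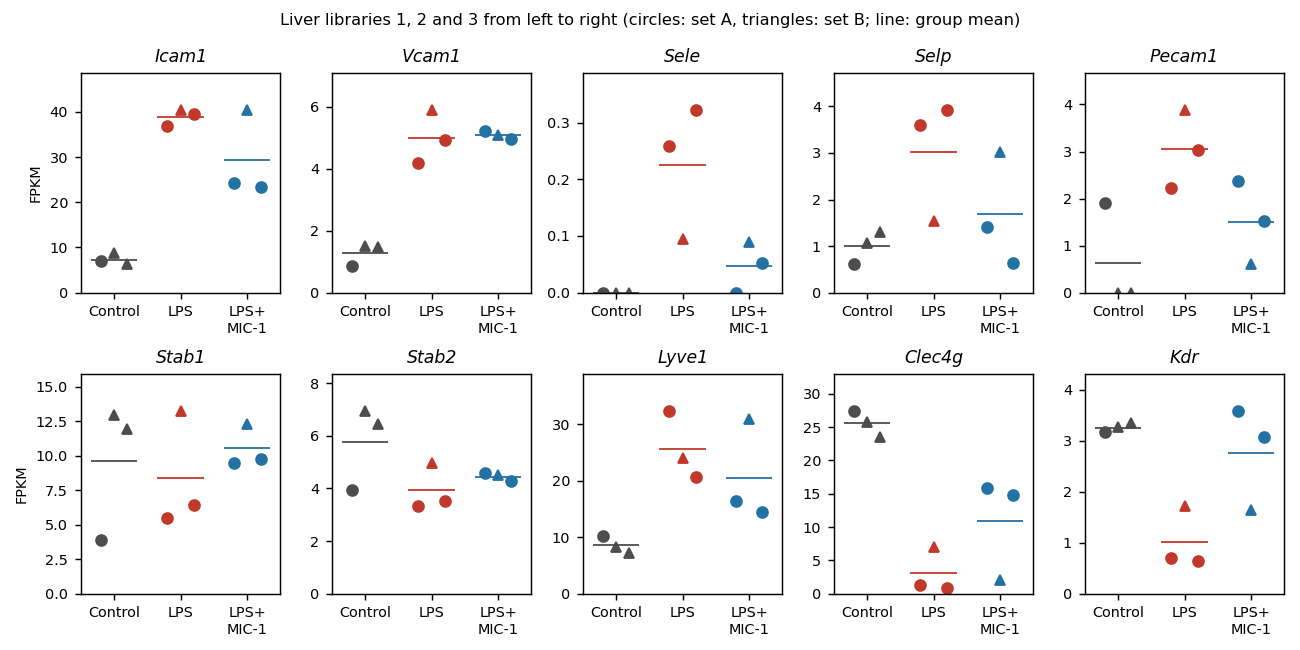
FPKM of the 10 genes in the 9 liver libraries, 1 panel per gene with its own linear axis from 0. Points are libraries 1, 2 and 3 from left to right in each group, circles for set A and triangles for set B, and lines are group means. Icam1, Vcam1 and Lyve1 lie above the controls in all LPS libraries, while Clec4g and Kdr lie below them, and library 2 often differs from libraries 1 and 3 within LPS and LPS+MIC-1.

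The comparison of LPS with Control asks how endotoxin altered these genes. Of the 10 members 9 passed the filter of mean FPKM above 1 over all libraries. Pecam1 passed it through the LPS-exposed groups, with means of 3.05 FPKM in LPS and 1.51 in LPS+MIC-1 against 0.635 in Control. With LPS, 4 of the 9 tested members rose, namely Icam1, Pecam1, Vcam1 and Lyve1, and 2 fell, Clec4g and Kdr. These calls were made at an adjusted p below 0.05 and an absolute log2 fold change above 1 in limma. Of all 10147 genes tested, 13.4% rose and 11.2% fell by the same rule (1356 and 1137 genes). Scaling each library to the same FPKM sum turned that split into 795 higher and 1850 lower, with the members still at 4 higher and 2 lower. The call on Pecam1 was held in only 13 of 24 alternatives. The median log2 fold change of the 9 tested members was 1.18, against 0.15 over all genes tested. For 8 of the 10 members, 6 higher and 2 lower, the LPS range was clear of the control range, beside 45% of the tested genes in either direction. A two-sided exact permutation test of 3 against 3 libraries gave p = 0.1 for each of these 8, the smallest p that this design allows. With 3 mice per group, the limma p-values weigh a difference against a spread pooled over all 9 libraries and moderated across genes. The exact p only ranks the observed split among the possible relabellings.

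Icam1 encodes a ligand of the leukocyte β2 integrins. Untreated RAW264.7 cultures also held its RNA, at a mean of 66.5 FPKM, so its whole-liver values cannot be assigned to endothelium alone. In liver Icam1 read 7.01, 8.71 and 6.27 FPKM in Control, 36.9, 40.4 and 39.5 in LPS and 24.2, 40.4 and 23.3 in LPS+MIC-1. All 6 LPS-exposed livers lay above all controls, and the LPS libraries stood within a narrow range. Icam1 rose with LPS by a log2 fold change of 2.34 ± 0.24 (SE; limma adjusted p = 0.00069), a mean 5.31 times the control mean. It kept its call in all 25 alternative settings. The gene lies on mm9 chr9:20820404-20833241, plus strand, and is protein coding.

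Vcam1 encodes the ligand of the integrin VLA-4 on monocytes and lymphocytes and lies on mm9 chr3:115812938-115832606, minus strand. It read 0.875, 1.52 and 1.48 FPKM in Control, 4.18, 5.90 and 4.93 in LPS and 5.23, 5.08 and 4.96 in LPS+MIC-1. The LPS-exposed groups were alike in level and neither overlapped the controls. Vcam1 rose with LPS by 1.63 ± 0.21 (SE; limma adjusted p = 0.0021) on the log2 scale, or 3.87 times the control mean, and was called in all 24 alternatives that tested it.

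The selectins start leukocyte rolling. Sele, the inducible E-selectin, lies on mm9 chr1:165978365-165987808 and Selp, P-selectin of endothelial and platelet granules, on chr1:166045395-166080157, both on the plus strand. Sele was listed at 0 in the 3 controls, at 0.259, 0.0942 and 0.322 FPKM in LPS and at 0, 0.0900 and 0.0530 in LPS+MIC-1. The LPS values stand for only about 11.9, 2.99 and 13.8 reads and the LPS+MIC-1 values for about 0, 2.99 and 1.98. Each LPS library lay above each LPS+MIC-1 library, the nearest being the library 2 of each group with about the same number of reads. Sele did not pass the filter on FPKM, and no fold is given against a group listed at 0. In a limma fit without that filter the difference of LPS and Control was 0.52 ± 0.12 (SE) on the log2(FPKM + 0.5) scale, under the fold threshold (adjusted p = 0.021).

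Selp read 0.626, 1.07 and 1.31 FPKM in Control, 3.60, 1.53 and 3.92 in LPS and 1.41, 3.02 and 0.646 in LPS+MIC-1. LPS libraries 1 and 3 were high, LPS 2 lay close to the controls, and in LPS+MIC-1 library 2 alone was high. The log2 fold change of LPS against Control was 1.18 ± 0.46 (SE), which did not pass the threshold (limma adjusted p = 0.078). Without LPS 2 it was 1.53 and passed (limma adjusted p = 0.028). Selp is also a platelet gene. Of 12 listed platelet and megakaryocyte markers 6 were tested, of which 0 rose and 1 fell with LPS, and the summed FPKM of that list was 14.5 to 37.8 in Control, 17.4 to 36.1 in LPS and 17.1 to 30.7 in LPS+MIC-1, highest in library 2 within LPS and within LPS+MIC-1. Of its genes Treml1 was listed at 0 throughout. Its part in the Selp and Pecam1 values was not tested.

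Pecam1, the junctional CD31 shared by endothelium, platelets and leukocytes, lies on mm9 chr11:106515531-106611942, minus strand. It read 1.91, 0 and 0 FPKM in Control, 2.23, 3.89 and 3.02 in LPS and 2.38, 0.614 and 1.53 in LPS+MIC-1. The log2 fold change of LPS against Control was 2.04 ± 0.63 (SE; limma adjusted p = 0.037). Control 2 and 3 were listed at 0, and Control 1 lay just below LPS 1. Csnk2b was listed at 0 in Control 2 and 3 as well, so these values do not show that Pecam1 was silent there. Of 24 alternatives 13 kept the call. It was lost when any 1 of Control 2, Control 3, LPS 1, LPS 2, LPS 3 or LPS+MIC-1 3 was left out (limma adjusted p between 0.056 and 0.12). Without LPS 2 the log2 fold change was 1.88 (limma adjusted p = 0.071), and with a pseudocount of 1 it was 1.48. In set A alone, where Control 1 was the lone control, it was only 0.37, the lowest of the alternatives.

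To give sequence context for the called adhesion gene with a promoter entry and for the inducible selectin, the start regions of Icam1 and Sele are printed from 250 bases before to 30 after the RefSeq start. The sequences come from RefSeq on GRCm38.p6, where 7 of the 10 members had an entry, and each matched a single place in mm9, Icam1 at chr9:20820134-20820413 and Sele at chr1:165978115-165978394, both on the plus strand. Capitals mark matches, on either strand, to the NF-κB consensus, the RelA form of that consensus, TATAAA and TGANTCA. In Icam1 they are overlapping RelA-form matches on both strands from position -154 and TATAAA at position 14. In Sele they are TGANTCA at position -73 and TATAAA at -49. Among all 32851 RefSeq starts with a window of 300 bases, 4.51% held the NF-κB consensus, 8.38% the RelA form, 13.6% TATAAA and 7.81% TGANTCA. A match describes letters and not binding.
Icam1: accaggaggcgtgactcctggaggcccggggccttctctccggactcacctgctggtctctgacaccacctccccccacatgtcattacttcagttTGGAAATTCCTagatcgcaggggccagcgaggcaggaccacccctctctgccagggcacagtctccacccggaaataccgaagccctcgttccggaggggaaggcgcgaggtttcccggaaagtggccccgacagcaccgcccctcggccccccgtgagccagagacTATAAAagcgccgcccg
Sele: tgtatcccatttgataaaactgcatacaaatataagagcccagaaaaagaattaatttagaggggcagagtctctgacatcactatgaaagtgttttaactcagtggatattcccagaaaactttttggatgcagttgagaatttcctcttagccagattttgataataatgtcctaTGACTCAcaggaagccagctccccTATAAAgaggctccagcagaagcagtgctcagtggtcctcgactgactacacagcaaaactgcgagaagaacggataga

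The sinusoidal markers did not move as a group with LPS. Of the 4 genes, 1 rose and 1 fell, and their median log2 fold change was -0.30. Lyve1, a hyaluronan receptor of sinusoidal and lymphatic endothelium, lies on mm9 chr7:117994121-118006467, minus strand. It read 10.2, 8.23 and 7.28 FPKM in Control, 32.4, 24.1 and 20.6 in LPS and 16.3, 30.9 and 14.4 in LPS+MIC-1. All LPS-exposed libraries lay above the controls. Lyve1 rose with LPS by 1.52 ± 0.31 (SE; limma adjusted p = 0.0090) on the log2 scale, a mean 3.00 times that of the controls, and was called in all 25 alternatives.

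Clec4g encodes LSECtin, a C-type lectin of sinusoidal endothelium, and lies on mm9 chr8:3707064-3720651, minus strand. It read 27.5, 25.8 and 23.6 FPKM in Control, 1.28, 7.04 and 0.824 in LPS and 15.9, 2.06 and 14.8 in LPS+MIC-1. The controls were tightly grouped above every other library. Within LPS, library 2 was high, and within LPS+MIC-1, library 2 was low and lay inside the LPS range. With LPS Clec4g fell by 3.32 on the log2 scale (SE 0.81; limma adjusted p = 0.017), the LPS mean being 0.119 of the control mean. The call was lost in 4 of 25 alternatives, when Control 2 (adjusted p = 0.051), LPS 1 (0.061) or LPS 3 (0.069) was left out of the limma fit or when the adjusted p had to be below 0.01, and the fold changes stayed between -4.19 and -2.83.

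Kdr, the main signalling receptor for VEGF on endothelium, lies on mm9 chr5:76328852-76374483, minus strand. It read 3.18, 3.26 and 3.34 FPKM in Control, 0.709, 1.71 and 0.649 in LPS and 3.59, 1.65 and 3.07 in LPS+MIC-1. The 3 controls were close together, all LPS libraries lay below them, and libraries 1 and 3 of LPS+MIC-1 stood at the control level. With LPS Kdr fell by 1.37 on the log2 scale (SE 0.33; limma adjusted p = 0.016), to 0.314 of the control mean. Leaving out LPS 1 (adjusted p = 0.059) or LPS 3 (0.065) ended the call in the limma fit, and 21 of 24 alternatives kept it.

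Stab1 and Stab2 encode the large scavenger receptors of sinusoidal endothelium, Stab2 being the main hyaluronan clearance receptor. They lie on mm9 chr14:31952199-31981827 and chr10:86303943-86470770, both on the minus strand. Stab1 read 3.88, 12.9 and 12.0 FPKM in Control, 5.51, 13.3 and 6.43 in LPS and 9.50, 12.3 and 9.78 in LPS+MIC-1. In every group set B was above set A, and the groups overlapped. Its log2 fold change with LPS was -0.12 ± 0.46 (SE; limma adjusted p = 0.86), and it was 0.56 in set A alone, where Control 1 was the lone control. Stab2 read 3.94, 6.95 and 6.43 FPKM in Control, 3.32, 4.96 and 3.52 in LPS and 4.57, 4.49 and 4.27 in LPS+MIC-1. The groups overlapped here too, with a log2 fold change with LPS of -0.48 ± 0.24 (SE; limma adjusted p = 0.14).

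The start regions of the 2 members that fell with LPS are shown in the same way, Clec4g at mm9 chr8:3720622-3720901 and Kdr at chr5:76374451-76374730, both read along the minus strand. Clec4g held 1 match, TATAAA on the opposite strand from position -31. Kdr held 1 match, to the NF-κB consensus from position -74. In the windows of Selp, Stab1 and Stab2, Selp held TGANTCA at position -139 and the other two held none of the 4 motifs.
Clec4g: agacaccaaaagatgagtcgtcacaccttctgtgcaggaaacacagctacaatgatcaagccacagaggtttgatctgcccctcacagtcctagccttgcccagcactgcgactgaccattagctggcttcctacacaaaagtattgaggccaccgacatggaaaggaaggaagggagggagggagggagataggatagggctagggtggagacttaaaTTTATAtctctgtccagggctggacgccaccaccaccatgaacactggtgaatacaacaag
Kdr: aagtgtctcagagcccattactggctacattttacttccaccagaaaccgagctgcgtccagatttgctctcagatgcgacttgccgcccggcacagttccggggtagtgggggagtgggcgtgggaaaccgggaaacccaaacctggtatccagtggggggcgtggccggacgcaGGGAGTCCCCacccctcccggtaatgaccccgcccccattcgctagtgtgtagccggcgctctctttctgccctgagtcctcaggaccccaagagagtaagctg

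**Figure D2:**
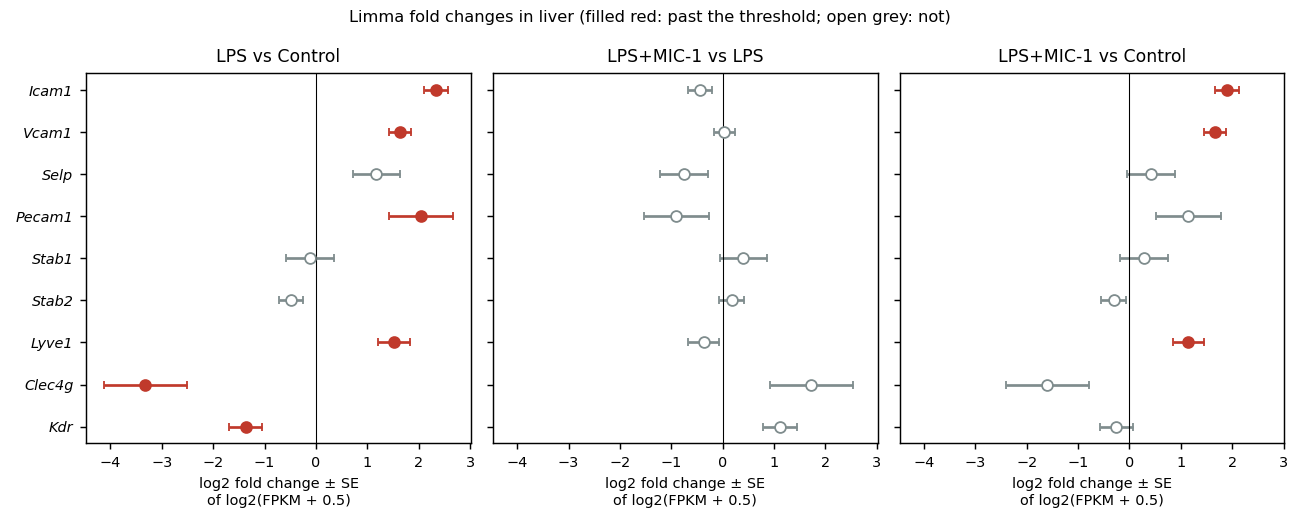
Log2 fold changes of the 9 tested members in the 3 liver comparisons, with the standard error of the limma fit as bars and values on the log2(FPKM + 0.5) scale. Filled red points passed the threshold. In LPS vs Control 4 members lie above 0 and 2 below it past the threshold, in LPS+MIC-1 vs LPS none is filled, and in LPS+MIC-1 vs Control Icam1, Vcam1 and Lyve1 are.

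The comparison of LPS+MIC-1 with LPS asks what pretreatment altered. In the limma fit of all 9 libraries 0 of the 9 tested members passed the threshold, and neither did any other gene, so that 0% of 10147 genes were called. At an unadjusted p below 0.05 the count was 364 genes, of which 1 was a member, Kdr, with a difference of 1.12 ± 0.33 (SE; limma adjusted p = 0.997; exact permutation p = 0.2). The smallest adjusted p over all genes was 0.055. Clec4g differed by 1.73 ± 0.81 (SE; exact permutation p = 0.2), a mean 3.58 times that of LPS, with overlapping ranges. Icam1 had a difference of -0.45 ± 0.24 (SE; exact permutation p = 0.4), and Vcam1 one of 0.034 ± 0.21 (SE; exact permutation p = 0.7). Without LPS+MIC-1 2 the Icam1 difference was -0.70 (limma adjusted p = 0.46). The ranges of the 2 groups were apart for 1 of the 10 members, Sele, beside 9.75% of tested genes.

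This comparison depended on library 2. Without LPS 2 and LPS+MIC-1 2, an alternative added after seeing the data, 2 members passed, Clec4g higher by 3.37 (limma adjusted p = 0.0050) and Kdr higher by 1.70 (limma adjusted p = 0.013), among 305 genes of 10192. In the same fit Icam1 differed by -0.67 (limma adjusted p = 0.11), Lyve1 by -0.73 (0.22), Selp by -1.52 (0.079), Pecam1 by -0.36 (0.87), Stab1 by 0.65 (0.59), Stab2 by 0.33 (0.59) and Vcam1 by 0.15 (0.80), none past the threshold. In the 5 libraries of set A alone, 3 members passed, Clec4g by 3.37, Kdr by 1.70 and Selp by -1.52 (limma adjusted p = 0.035), among 656 genes. Both fits rest on the close pairs LPS 1 and 3 and LPS+MIC-1 1 and 3 described above. With the set as a term in a fit of all 9 libraries, 0 members passed. In set B, which has 1 library per treated group, Clec4g went the other way, from 7.04 FPKM in LPS 2 to 2.06 in LPS+MIC-1 2. Kdr stood at 1.71 and 1.65, and Selp at 1.53 and 3.02. For 905 genes the means of libraries 1 and 3 of LPS and of LPS+MIC-1 stood apart by an absolute log2 difference above 1. Among these genes LPS 2 lay nearer to the LPS+MIC-1 pair for 69.3%. LPS+MIC-1 2 lay nearer to the LPS pair for 50.3%, close to an even split. Both held for 27.6%, Clec4g and Selp included. Whether the labels of these libraries 2 were exchanged was not tested, and each LPS+MIC-1 against LPS value from all 9 libraries takes the labels as given.

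**Figure D3:**
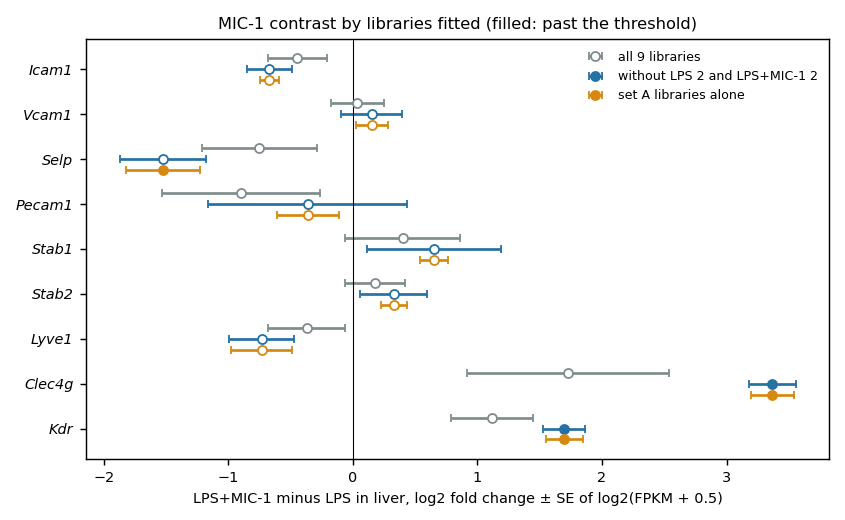
Difference of LPS+MIC-1 and LPS in liver for the 9 tested members on the log2(FPKM + 0.5) scale, with limma standard errors, from all 9 libraries (grey), without LPS 2 and LPS+MIC-1 2 (blue) and from set A alone (orange). Filled points passed the threshold. Clec4g moves from 1.73 to 3.37 and Kdr from 1.12 to 1.70 when library 2 of both groups is left out.

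The comparison of LPS+MIC-1 with Control asks which members still differed from the untreated state after pretreatment. Icam1 was higher by 1.90 ± 0.24 (SE; limma adjusted p = 0.0016), Vcam1 by 1.66 ± 0.21 (0.0017) and Lyve1 by 1.15 ± 0.31 (0.021), and these were the 3 called members of 9 tested, beside 13.8% of all genes called higher. No tested member was called lower as deposited. This comparison shares its controls with that of LPS and its LPS+MIC-1 libraries with the preceding one. The call on Lyve1 was held in 17 of 25 alternatives and was lost, among others, without LPS+MIC-1 2 (difference 0.82) and at an equal FPKM sum (0.52). Clec4g lay below all controls in the 3 libraries (difference -1.60, SE 0.81) and did not pass (limma adjusted p = 0.15). Its difference was -0.72 without LPS+MIC-1 2 (limma adjusted p = 0.41), and at an equal FPKM sum it was -2.22 and called lower (limma adjusted p = 0.049). Without LPS+MIC-1 2 the difference of Selp was 0.0073, against 0.42 with it. Kdr differed from Control by -0.25 ± 0.33 (SE; limma adjusted p = 0.57), with 2 of 3 libraries at the control level.

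In the RAW264.7 cultures Icam1 was abundant and Vcam1 was listed at 0 in all 9 libraries. Icam1 read 66.1, 67.7 and 65.8 FPKM in Control, 18.0, 74.2 and 17.5 in LPS and 39.3, 38.8 and 40.1 in LPS+MIC-1. LPS 2 stood at the control level while LPS 1 and 3 were lowest of all, and LPS+MIC-1 lay in between with a narrow range. Across genes too, LPS 2 stood apart from the other LPS libraries and close to the controls. Its squared difference from LPS 1 and 3 was 120 to 129 times the sampling variance, against 2.16 times between those 2. Over 9905 genes LPS 2 correlated at r = 0.980 to 0.990 with the control cultures, against 0.862 with LPS 1 and 0.860 with LPS 3. Fits of all 9 macrophage libraries take its label as given. The study left out an LPS library of the macrophages without naming it. In the limma fit of all 9 libraries 0 of the 2 members that passed the FPKM filter, Icam1 and Stab1, were called in any comparison, and both had an unadjusted p below 0.05 for LPS against Control alone. For LPS against Control the Icam1 log2 fold change was -1.20 ± 0.48 (SE; limma adjusted p = 0.087), where 0% of 9905 genes were called and 4928 had an unadjusted p below 0.05. For LPS+MIC-1 against LPS it was 0.45 ± 0.48 (limma adjusted p = 0.52, with 8.31% of genes called) and for LPS+MIC-1 against Control -0.75 ± 0.48 (limma adjusted p = 0.29, with 11.8% called). Without LPS 2, Icam1 was lower with LPS by 1.88 (difference -1.88, limma adjusted p = 5.7e-07). In the same fit it was higher with LPS+MIC-1 than with LPS by 1.13 (limma adjusted p = 4.7e-06). That fit called 3522 of 9913 genes for LPS against Control and 2430 for LPS+MIC-1 against LPS. Its LPS group held only the close pair LPS 1 and 3.

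Levels in the 2 tables were scaled separately, so their difference was not tested. Icam1 in liver was higher with LPS in 3 of 3 libraries, whereas in RAW264.7 cells it was lower in 2 of 3. The exception was LPS 2, the library close to the controls across genes. Vcam1, listed at 0 in every culture, allowed no comparison there. Of the other members, Stab1 read 2.56, 3.69 and 2.94 FPKM in control cultures, 14.4, 3.45 and 14.5 under LPS, and 6.45, 5.13 and 6.67 under LPS+MIC-1, again with LPS 2 at the control level. Clec4g was listed at 0 in all 9 cultures. The remaining 6 members had group means of at most 0.190 FPKM.

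**Figure D4:**
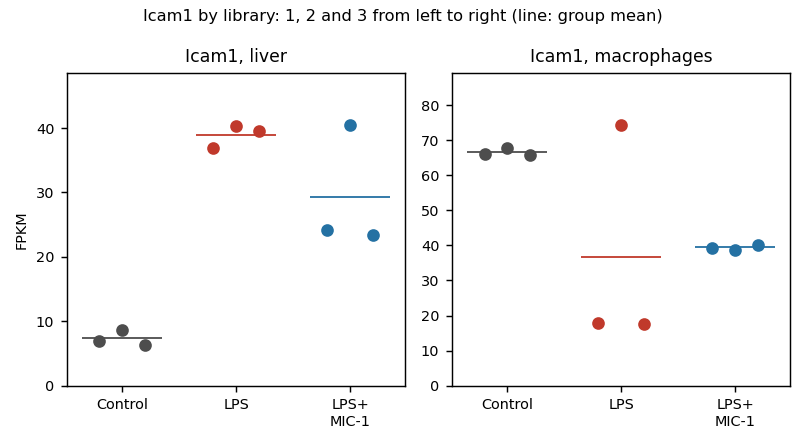
Icam1 FPKM by library in liver (left) and RAW264.7 macrophages (right), with libraries 1, 2 and 3 from left to right in each group, group means as lines and separate linear axes from 0. In liver all LPS libraries (36.9 to 40.4) lie above the controls, and in macrophages LPS 1 and 3 (18.0 and 17.5) lie below them while LPS 2 (74.2) does not.

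The other genes of the same processes were counted from lists of textbook genes, to be read beside the 13.4% of all tested genes that rose and the 11.2% that fell. Of 13 tested leukocyte ligands of these adhesion molecules 6 rose with LPS and 0 fell, with a median of 0.96 against 0.15 for all genes. Itgam and Itgb2, the chains of the ICAM-1 receptor Mac-1, rose by 1.94 ± 0.20 and 1.73 ± 0.30 (SE; limma adjusted p = 0.00071 and 0.0054). Cd24a, a P-selectin ligand, rose by 1.32 ± 0.42 (SE; limma adjusted p = 0.040). Of 9 tested further adhesion and junction molecules 3 rose and 0 fell, namely the tetraspanin Cd151 (1.33), the junction protein F11r (1.23) and the chemokine-binding receptor Darc (1.13). Of 4 tested proteases that shed adhesion molecules Mmp9 (2.06) and Mmp14 (1.14) rose, and of the 2 tested enzymes of selectin ligand synthesis B4galt1 rose (1.10). Of 11 tested feedback targets of NF-κB 2 rose and 0 fell, Tnfaip3 by 2.83 and Tnip1 by 1.41, both inhibitors of the pathway, a share near that of all genes.

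Other endothelial genes were counted in the same way. Of 16 tested further genes of sinusoidal endothelium 0 rose and 5 fell with LPS, with a median of -0.65. Ehd3, an endocytic protein, had a log2 fold change of -2.48 (limma adjusted p = 0.0075), the angiocrine signals Bmp2 and Rspo3 of -1.82 and -1.68 (limma adjusted p = 0.016 and 0.022), and the mannose receptor Mrc1 of -1.30 (0.041). Ehd3 read 11.6, 9.63 and 10.8 FPKM in Control, 0.916, 3.54 and 0.906 in LPS and 5.0, 1.75 and 4.90 in LPS+MIC-1, with library 2 highest within LPS and lowest within LPS+MIC-1, as for Clec4g. Of 23 tested genes of endothelium in general 4 rose and 2 fell, shares near those of all genes. The receptors of the protein C pathway Procr and Thbd rose by 3.06 ± 0.26 and 1.87 ± 0.47 (SE; limma adjusted p = 0.00043 and 0.018), while the phosphatase Ptprb and the receptor Gpr116 fell, with log2 fold changes of -2.05 and -1.89 (limma adjusted p = 0.0039 and 0.018). Of 10 tested genes of the VEGF and angiopoietin pathway 1 rose and 2 fell. Vegfa, the main ligand of Kdr, had a log2 fold change of -1.64 (limma adjusted p = 0.0010), Figf, a further VEGF family ligand, one of -2.62 (0.013), and Angptl4 rose by 1.77 (0.0034). In LPS+MIC-1 against LPS no gene of any of these lists passed the threshold, as for all genes tested.

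**Figure D5:**
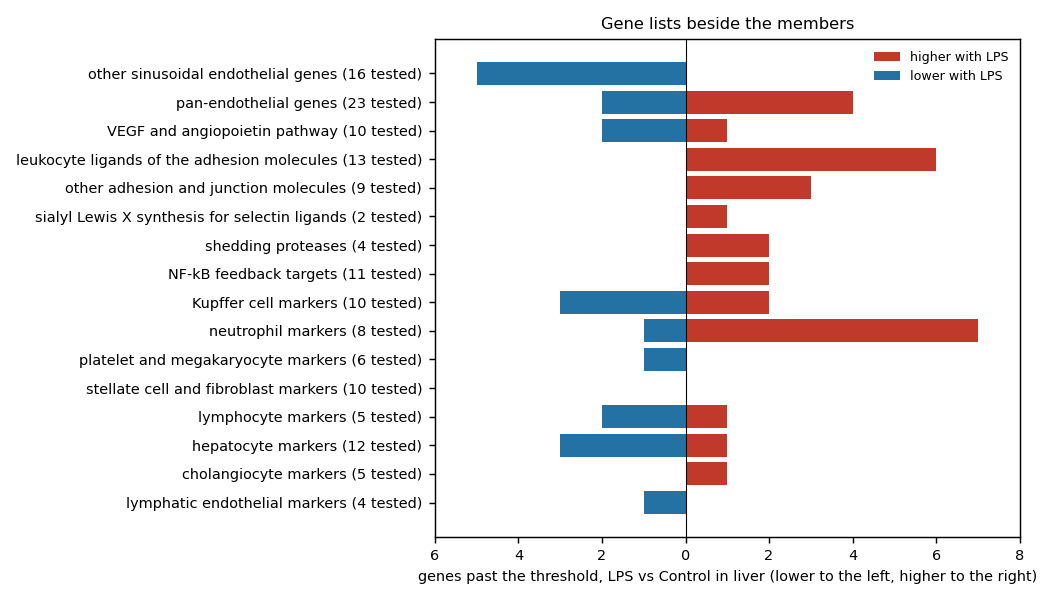
Number of genes past the threshold in liver, LPS vs Control, for each gene list beside the members, with genes that rose to the right in red, genes that fell to the left in blue and the number tested in parentheses. Leukocyte ligands (6 of 13) and neutrophil markers (7 of 8) lie mostly to the right, and the further sinusoidal genes (5 of 16) to the left.

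Markers of neutrophils rose beside the adhesion molecules, while those of other leukocytes moved in both directions. Of 13 listed neutrophil markers 8 were tested, of which 7 rose with LPS and 1 fell, and the summed FPKM of the list was 37.7 to 53.1 in Control, 354 to 451 in LPS and 193 to 465 in LPS+MIC-1. Within LPS+MIC-1 it was 193, 465 and 206, so library 2 was high, as it was for Icam1, Selp and Lyve1. In Control the neutrophil genes Csf3r and Mpo were listed at 0. S100a9 and S100a8 rose by 6.27 and 5.53 and Ngp and Retnlg by 4.83 and 4.75. Of 12 listed Kupffer cell markers 10 were tested. Of these 2 rose, Marco by 3.01 and C1qb by 1.42, and 3 fell, among them Clec4f (log2 fold change -2.11) and Vsig4 (-1.47), and the summed list was 91.3 to 102 in Control, 126 to 163 in LPS and 161 to 238 in LPS+MIC-1, with no marker at 0 in every control. Of 12 listed lymphocyte markers 5 were tested, of which 1 rose and 2 fell, and the summed list was 15.3 to 19.6 in Control, 7.48 to 10.9 in LPS and 10.3 to 11.2 in LPS+MIC-1, with Cd79b at 0 in every control. The part of these cells in the values of the members was not tested.

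The genes whose pattern over the 9 liver libraries was most like that of Icam1 were Procr (Pearson r = 0.990), S100a11 (0.989) and Cd52 (0.988). Those most like Clec4g were Gphn (0.992), Col18a1 (0.987) and Hgd (0.982). These are the highest of 10147 tested genes on the log2(FPKM + 0.5) scale, over points that share the groups and the library sets, and they are given as a description.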

How the data were processed

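Liver and RAW264.7 RNA was sequenced in 18 libraries, 3 per group and table. The authors pseudoaligned reads to mm9 RefSeq transcripts with kallisto 0.45.0, summarised them per gene and deposited FPKM values, scaled between libraries, from DESeq2 1.20.0. The 6 tables of the authors' own comparisons (mean normalized count, log2 fold change with its error, Wald score, p-values) were not used. All value columns were matched to a group by name. Genes with mean FPKM above 1 in a table were tested on log2(FPKM + 0.5) with limma 3.58.1 in R 4.3.3 (eBayes with trend), all 9 libraries of a table in one fit, with Benjamini-Hochberg adjustment over all genes. A gene was called at an adjusted p below 0.05 and an absolute log2 fold change above 1. Fold changes on this scale understate those of low genes. The members, the gene lists and the tests were chosen with earlier results of these data known. All 10 members were named, with up to 4 called genes per list for LPS against Control, up to 2 for LPS+MIC-1 against LPS, and the 3 genes most like the members with the largest rise and fall. One gene that the rule names is not reported here. Genes outside that rule are Asgr1, Csnk2b, Tek, Erg and Cdh5, picked after their values were seen. Reads were estimated from the steps of low FPKM values (71.3 to 79.4% of low values lay within 0.15 of a whole read), so they are approximate. Gene coordinates are from GENCODE on mm9. The fit was tested on simulated data. Tables and plots were made in Python 3.11.15 with pandas 2.3.3, numpy 2.4.6 and matplotlib 3.10.9. Alternatives covered pseudocount, filter, scaling, thresholds, model settings and each library left out, and 3 kinds that deal with the library sets were added after seeing the data.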

Additional observations from a re-analysis of the deposited data

Results flagged for a closer look

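Icam1 went opposite ways in the tables when LPS+MIC-1 was set against the mean of Control. In liver the 3 libraries lay 1.62 to 2.40 above the control mean on the log2(FPKM + 0.5) scale. In RAW264.7 macrophages the 3 libraries stood below it, with differences between -0.77 and -0.72. The difference between the tables was not tested, since they were normalized separately. Groups of 3 libraries are too small for a test of single outlying libraries.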

How the results depend on the processing

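Of the 25 alternatives in liver, 21 kept the count of members called for LPS against Control within 1.5 times of 6, 22 kept 0 for LPS+MIC-1 against LPS and all 25 gave a count for LPS+MIC-1 against Control within 1.5 times of 3, though not of the same members: an equal FPKM sum called Clec4g lower and not Lyve1, and set A, with 1 control library, called Stab1 higher (1.21). For LPS against Control the count was 3 with a mean FPKM above 5 and 3 at an adjusted p below 0.01, and 3 to 6 with 1 library left out. Here too a kept count could hold other members. Without LPS 2 the count stayed at 6, with Selp called and not Pecam1, which was called in 13 of 24 alternatives. For LPS+MIC-1 against LPS it was 1 at an unadjusted p below 0.05, 2 without both libraries 2, 3 in set A alone and 0 with any 1 library left out. Leaving out 1 library gave 2 to 4 for LPS+MIC-1 against Control. In macrophages the count for LPS against Control was 2 at an unadjusted p below 0.05 and 0 to 2 with 1 library left out, and that for LPS+MIC-1 against LPS was 0 to 2, in both cases 2 without LPS 2 (Icam1 and Stab1). No paired analysis was possible because the columns of the tables carry no replicate numbers.

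Directions turned for small differences that were not called. For LPS+MIC-1 against LPS an equal FPKM sum gave Stab2 -0.081 and Vcam1 -0.23, and for LPS+MIC-1 against Control it gave Selp -0.034 and Stab1 -0.34. That scaling moves the median of all genes to -0.18, -0.26 and -0.43 in the 3 liver comparisons, from 0.15, -0.0093 and 0.15. Stab1 for LPS against Control was 0.17 without Control 2, 0.11 without Control 3 or LPS 1 and 0.013 without LPS 3 (range with 1 library left out -0.64 to 0.17), 0.21 with the set as a term and 0.56 in set A, and for LPS+MIC-1 against Control it was -0.24 without Control 1 (range -0.24 to 0.57). Vcam1 was -0.078 for LPS+MIC-1 against LPS without LPS 1 (range -0.078 to 0.15). For LPS+MIC-1 against Control Kdr was 0.023 without LPS+MIC-1 2, with or without LPS 2 (range with 1 library left out -0.44 to 0.023), and 0.055 in set A, where Stab2 was 0.15. The cause of these changes was not tested.

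Over all genes, leaving out 1 library gave 1239 to 3522 calls for LPS against Control in liver against 2493, and an adjusted p below 0.01 gave 1102. For LPS+MIC-1 against LPS leaving out LPS 2 gave 36 calls. In macrophages leaving out LPS 2 gave 3522 calls for LPS against Control and 2430 for LPS+MIC-1 against LPS, against 0 and 823. Depth limits Sele, at most about 13.8 reads in a liver library.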

Other observations

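Other cell types of the liver were counted with the same rule for LPS against Control. Of 12 tested hepatocyte markers 1 rose, the tryptophan oxygenase Tdo2 (1.35), and 3 fell, the bile acid enzyme Cyp7a1 (log2 fold change -5.08) and the urea cycle enzymes Cps1 (-1.79) and Ass1 (-1.69). Of 5 tested lymphocyte markers 1 rose, Gzma (2.33), and 2 fell, Cd3d (-1.79) and Cd79a (-1.77). Of 5 tested cholangiocyte markers Sox9 rose (1.51). Of 4 tested lymphatic endothelial markers Ccl21b fell (-2.36), while Lyve1, which lymphatic endothelium also expresses, rose. Of 6 tested platelet and megakaryocyte markers Gp1ba fell (-1.36). Of 10 tested stellate cell and fibroblast markers 0 passed in limma, with a median of -0.39. In LPS+MIC-1 against LPS 0 genes of these lists passed.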
